A study of Rattus norvegicus with 5 samples.

Results

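RNA levels of 10 genes that sensory neurons are known to switch on after axon injury were examined in dissociated, cultured dorsal root ganglia of the rat. The genes were a list given by symbol, namely Atf3, Jun, Sox11, Gap43, Sprr1a, Gadd45a, Stat3, Klf6, Smad1 and Ecel1, and all 10 were found among the 33014 genes of the authors' table. The series, which concerns an optical screen for pain drugs, holds 5 RNA-seq libraries of 1 group. Ganglia of wild-type Sprague Dawley rats of postnatal day 10 were dissociated, plated at 5000 cells per well, given PBS after 1 day and harvested after 8 days of culture. Each library holds the pooled RNA of 3 wells, and the labels describe ganglia of 1 litter of 10 pups and do not say that the libraries came from separate preparations, so the spread between them may be technical. Uninjured ganglia were not analysed here, so the values below are levels and not changes.

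Cutting the axon of a peripheral sensory neuron, which dissociation of a ganglion also does, starts a transcription programme that accompanies regrowth. Kinase signals carried back from the axon activate Jun and induce Atf3, transcription factors that bind DNA as dimers of the bZIP type, while gp130 cytokines act through Stat3 and bone morphogenetic proteins through Smad1. Among the products of the programme are Gap43, a protein of the growth cone membrane, and Sprr1a, a small proline-rich protein otherwise known from skin. Jun and Stat3 are also active in Schwann cells and other non-neuronal cells, and these libraries do not show which cells made each RNA.

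All 10 genes were expressed in every library, and Gap43 was the highest. Levels are given as TPM, reads per effective transcript length, expressed so that each library sums to 1000000. A gene counted as detected at 1 TPM or more in every library, a rule that 41.3% of the genes in the table met. All 10 genes also met thresholds of 0.1 TPM, which 50.8% of all genes met, and 10 TPM, which 27.6% met. Mean levels spanned 45.9-fold, from Gap43 at 1635 ± 7.78 TPM to Sprr1a at 35.6 ± 3.44 TPM (SD, n = 5). The median of the 10 means was 138 TPM, against 20.5 TPM over the 13635 detected genes. A mean of at least 100 TPM was reached by 5 of the 10 genes and by 5.2% of all genes. Together the 10 genes held 3624 ± 40.2 TPM, which is 0.362% of the total, and Gap43 made up 45.1% ± 0.329 of that sum.

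**Figure D1:**
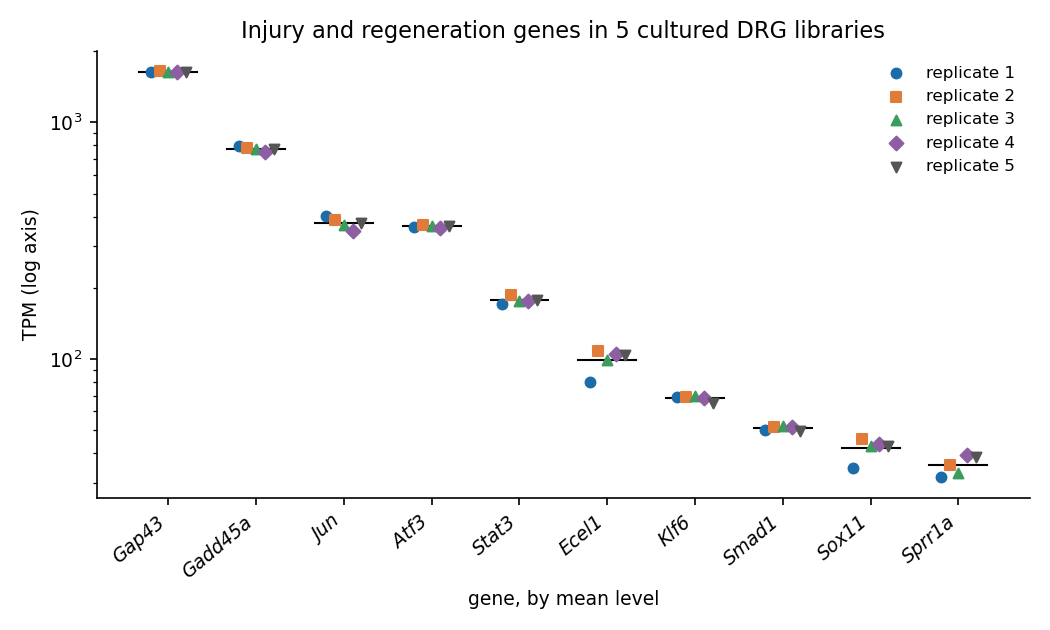
TPM (log axis) of each of the 10 genes in the 5 libraries, ordered by mean level; points are libraries and the black line is the mean. Gap43 lies highest at a mean of 1635 TPM and Sprr1a lowest at 35.6 TPM, and the points of Jun and Atf3 overlap.

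Libraries held between 21596608 and 27913098 estimated reads. Of these, 26553 to 34270 reads per library fell on Gap43, 7896 to 10032 on Atf3 and 937 to 1339 on Sox11. Markers of neurons (8 of 8 genes detected), Schwann cells (6 of 6), satellite glia (3 of 3), fibroblasts (6 of 6) and macrophages (6 of 6) were all present, and of 6 endothelial and mural genes 3 were detected. Summed neuron markers lay between 6735 and 7133 TPM, Schwann cell markers between 5425 and 6200 TPM, fibroblast markers between 1695 and 1739 TPM, and macrophage markers between 822 and 1287 TPM. Replicate 1 had the lowest Schwann cell marker sum, at 89.3% of the mean of the other libraries, and the highest sum of endothelial and mural markers. Of all detected genes, 24.4% were lower in replicate 1 than in all other libraries and 22.3% were higher.

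Atf3 and Jun, the bZIP factors at the centre of the injury response, were at similar levels in TPM. Atf3 had 362, 369.7, 364, 358 and 366 TPM in replicates 1 to 5. Its values stayed within a narrow range, with a mean of 364 ± 4.39 TPM and a highest-to-lowest ratio of 1.03. Jun had 401, 388, 369, 349 and 377 TPM in the same libraries. Jun varied more than Atf3, was highest in replicate 1 and lowest in replicate 4, and averaged 377 ± 19.7 TPM. The log2 ratio of Atf3 to Jun was -0.05 ± 0.07, and Atf3 was the lower of the pair in 4 of 5 libraries, so their order was not the same in all libraries. With 5 libraries the two-sided exact sign-flip permutation test of a ratio cannot give less than p = 0.063, so no ratio can pass 0.05, and it gave p = 0.1875 for Atf3 over Jun.

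Jun exceeded its family members Junb and Jund, and both Jun and Atf3 exceeded Fos. Jun was above Junb, a related factor, by 4.29-fold (log2 2.10 ± 0.02) and above Jund, a family member that many resting cells express, by 1.80-fold (log2 0.85 ± 0.04), in 5 of 5 libraries each. Jun made up 55.9% ± 0.475 of the summed TPM of the Jun family, and this share moved between 55.1% and 56.2%. Fos, the partner of Jun that is induced within minutes by activity or handling, was at 119, 108, 99.7, 86.05 and 92.7 TPM in replicates 1 to 5. Replicate 1 was highest and replicate 4 lowest. Atf3 exceeded Fos by 3.62-fold (log2 1.86 ± 0.18) and Jun exceeded Fos by 3.75-fold (log2 1.91 ± 0.12), in 5 of 5 libraries each (exact sign-flip p = 0.063, the smallest possible).

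Stat3, the factor that gp130 cytokines activate by phosphorylation, followed at 171, 186, 176, 175 and 177 TPM in replicates 1 to 5. Replicate 2 was highest and replicate 1 lowest, and the mean was 177 ± 5.25 TPM. Stat3 was 1.53-fold above its own inhibitor gene Socs3 (log2 0.62 ± 0.08), in 5 of 5 libraries. Socs3 itself had 101, 120.2, 117, 119 and 121 TPM in replicates 1 to 5, with replicate 1 apart from the others. These values are amounts of RNA and do not show how much of the protein was phosphorylated.

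Klf6 and Smad1 differed little between libraries. Klf6, a zinc finger factor linked to axon growth in zebrafish, had 69.3, 68.9, 69.7, 68.3 and 65.3 TPM, a mean of 68.3 ± 1.73 TPM. It was the highest gene of the 13 KLF genes examined and held 23.1% ± 0.605 of their summed TPM. Klf6 exceeded Klf9, which is known to restrain neurite growth, by 1.58-fold (log2 0.66 ± 0.06) and Klf4, another inhibitor of axon growth, by 3.10-fold (log2 1.63 ± 0.11), in 5 of 5 libraries each. Klf7, the closest relative of Klf6, was listed at 0 TPM in 4 libraries and at 0.142 TPM in replicate 4. The single Klf7 transcript that could be named in the quantification files had between 2.10 and 2.62 TPM, so the gene table and the transcript files disagree for Klf7 and its level is uncertain.

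Smad1, which carries bone morphogenetic protein signals to the nucleus, had 50.02, 51.8, 51.9, 51.6 and 49.6 TPM, a mean of 51.0 ± 1.08 TPM. It exceeded Smad5, a close relative with the same role, by 1.19-fold (log2 0.25 ± 0.09) and lay 1.34-fold below Smad4, the shared partner of the SMAD factors (log2 -0.42 ± 0.04), each in 5 of 5 libraries. Smad9, the other relative, was not detected, at 0.444 ± 0.0636 TPM. Smad1 thus made up 54.1% ± 1.52 of the summed TPM of these relatives.

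Sox11, a SoxC factor of developing and regenerating neurons, was lower and varied more. It had 34.6, 46.1, 42.9, 43.9 and 42.8 TPM in replicates 1 to 5, a mean of 42.1 ± 4.38 TPM. Replicate 1 stood below the others, at 78.8% of their mean. The related SoxC gene Sox4 was higher in every library, by 2.08-fold (log2 of Sox11 over Sox4 -1.06 ± 0.18), as was Sox12 by 1.16-fold (log2 -0.21 ± 0.19). Sox11 held 23.6% ± 2.16 of the summed TPM of the SoxC genes, with the lowest share, 19.8%, in replicate 1.

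Of the effector genes, Gap43 combined the highest level with the smallest spread. Gap43 had 1633, 1647, 1639, 1626 and 1632 TPM in replicates 1 to 5. The highest and lowest library differed by a ratio of 1.01, and Gap43 ranked between 93 and 99 among all genes. Its level was close to that of the neuronal tubulin gene Tubb3, with a log2 ratio of -0.02 ± 0.03 and Gap43 the lower in 4 of 5 libraries (exact sign-flip p = 0.1875). Gap43 exceeded Stmn2, a regulator of microtubules in growing axons, by 1.39-fold (log2 0.47 ± 0.03) and Basp1, a growth cone protein with similar properties, by 2.73-fold (log2 1.45 ± 0.07), in 5 of 5 libraries each.

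Gadd45a, a stress-inducible gene of growth arrest and DNA repair, was next after Gap43. It had 798, 780.5, 768, 752 and 771 TPM in replicates 1 to 5, a mean of 774 ± 16.8 TPM. Its highest value was in replicate 1 and its lowest in replicate 4. Gadd45a exceeded Gadd45g by 5.10-fold (log2 2.35 ± 0.06) and Gadd45b by 17.2-fold (log2 4.10 ± 0.06), in 5 of 5 libraries each, and held 79.7% ± 0.490 of the TPM of the family.

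Ecel1, a membrane metalloprotease of neurons that nerve injury induces, had 79.7, 108, 99.1, 105 and 104 TPM in replicates 1 to 5. Replicate 1 stood below the others, at 76.7% of their mean, and the mean over all was 99.1 ± 11.3 TPM. Ecel1 exceeded its relatives Ece1 by 1.42-fold (log2 0.51 ± 0.15) and Ece2 by 12.4-fold (log2 3.63 ± 0.12), endothelin-converting enzymes, in 5 of 5 libraries each. Of the summed TPM of Ecel1, Ece1, Ece2, Mme and Phex, Ecel1 held 53.9% ± 2.11.

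Sprr1a was the lowest of the 10 genes and the only member of its family that was detected among the 4 examined. It had 31.6, 35.7, 32.9, 39.4 and 38.6 TPM in replicates 1 to 5, a mean of 35.6 ± 3.44 TPM, and rested on between 260 and 372 reads per library. Replicates 4 and 5 were highest and replicate 1 lowest. Sprr1b, Sprr2d and Sprr3, genes best known from the cornified layer of skin, were each at 0 in at least 2 libraries and reached at most 0.343, 0.204 and 0.141 TPM. Sprr1a lay 2.77-fold below Ecel1 (log2 -1.47 ± 0.12) and 45.9-fold below Gap43 (log2 -5.52 ± 0.14), in 5 of 5 libraries each.

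**Figure D2:**
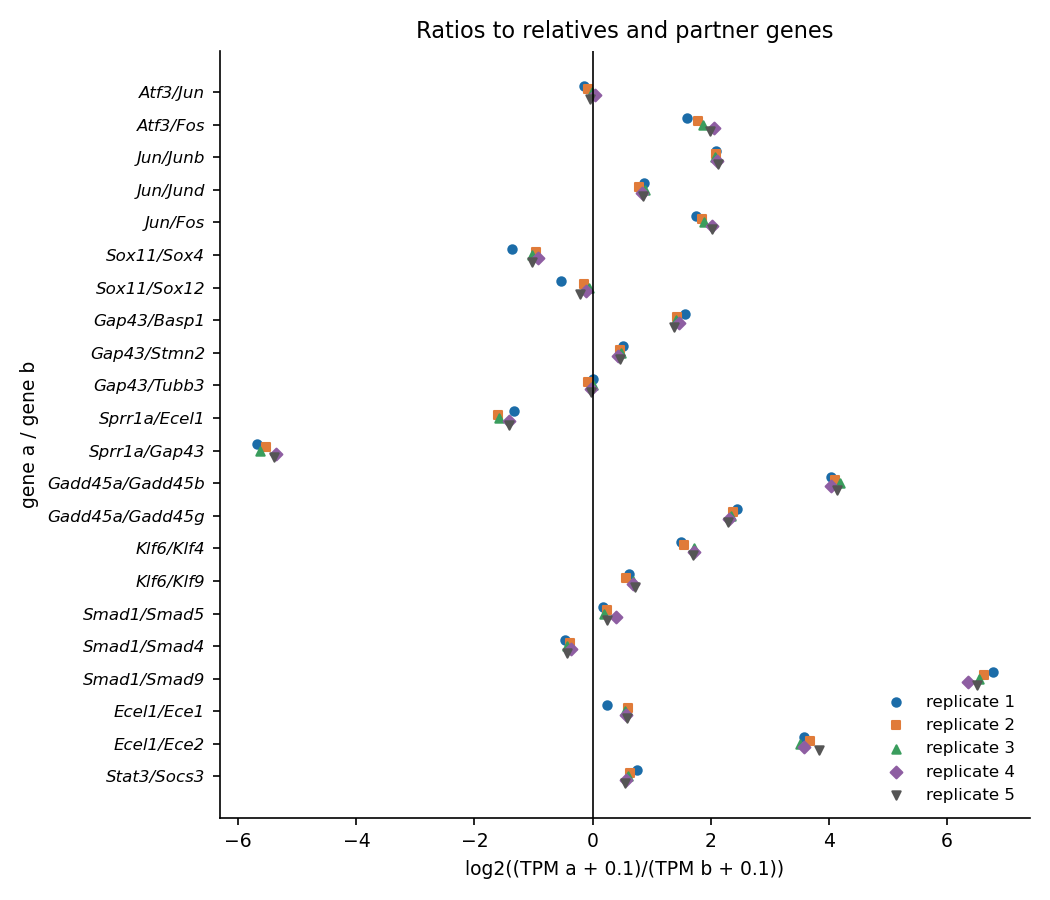
Log2 ratio of TPM (with 0.1 added) of each gene to a relative or partner gene, for 22 pairs; each point is a library and the vertical line marks equal levels. Atf3/Jun and Gap43/Tubb3 lie on the line, at means of -0.05 and -0.02, while the points of the other pairs lie on one side of it.

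The order of the 10 genes was nearly the same in all libraries. From high to low it was Gap43, Gadd45a, Jun, Atf3, Stat3, Ecel1, Klf6, Smad1, Sox11 and Sprr1a. Of the 9 pairs of neighbours in this order, 8 had the same order in 5 of 5 libraries. The exception was Jun and Atf3, which did not differ beyond their spread. The smallest steps among the others were Sox11 over Sprr1a (log2 0.24 ± 0.13), Smad1 over Sox11 (log2 0.28 ± 0.14) and Klf6 over Smad1 (log2 0.42 ± 0.03). These are levels per transcript length. In reads without length normalization, Jun lay above Gadd45a, Stat3 above Atf3 and Klf6 above Ecel1 (log2 of Gadd45a over Jun -0.54, of Atf3 over Stat3 -0.32 and of Ecel1 over Klf6 -0.17). On that scale Sox11 also lay above Sox12 (log2 1.00), Smad1 below Smad5 (log2 -0.46) and Ecel1 beside Ece1 (log2 -0.049). Atf3 lay further below Jun (log2 -0.85) and Gap43 further below Tubb3 (log2 -0.32), so their similar levels hold per transcript length only. Only reads of named transcripts entered, and these leave out 9.01% of the TPM of Ecel1. The ratios of Ecel1 on that scale are lowered by this loss too.

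The genes differed in how much they varied between libraries. The coefficient of variation (CV, the SD as a percentage of the mean) was 0.476% for Gap43, 1.21% for Atf3, 2.11% for Smad1, 2.18% for Gadd45a, 2.54% for Klf6 and 2.96% for Stat3. It was 5.23% for Jun, 9.65% for Sprr1a, 10.4% for Sox11 and 11.4% for Ecel1. Among the 146 genes with a mean within a factor of 2 of that of Gap43, Gap43 included, 0 had a smaller CV, and their median CV was 2.84%. For Ecel1, 2592 of 2657 genes of like level had a smaller CV, and for Sox11 4388 of 4626. For Gap43 the observed CV was 0.821 times the CV that counting error alone gives at its read number, and for Smad1 and Atf3 this ratio was 0.965 and 1.13. For Ecel1, Jun and Sox11 the CV was 6.85, 6.60 and 3.46 times the counting error. For Stat3, Gadd45a, Sprr1a and Klf6 it was 3.10, 2.28, 1.65 and 1.61 times. The large CV of Sprr1a thus lay closer to its counting error than those of Ecel1, Jun and Sox11.

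**Figure D3:**
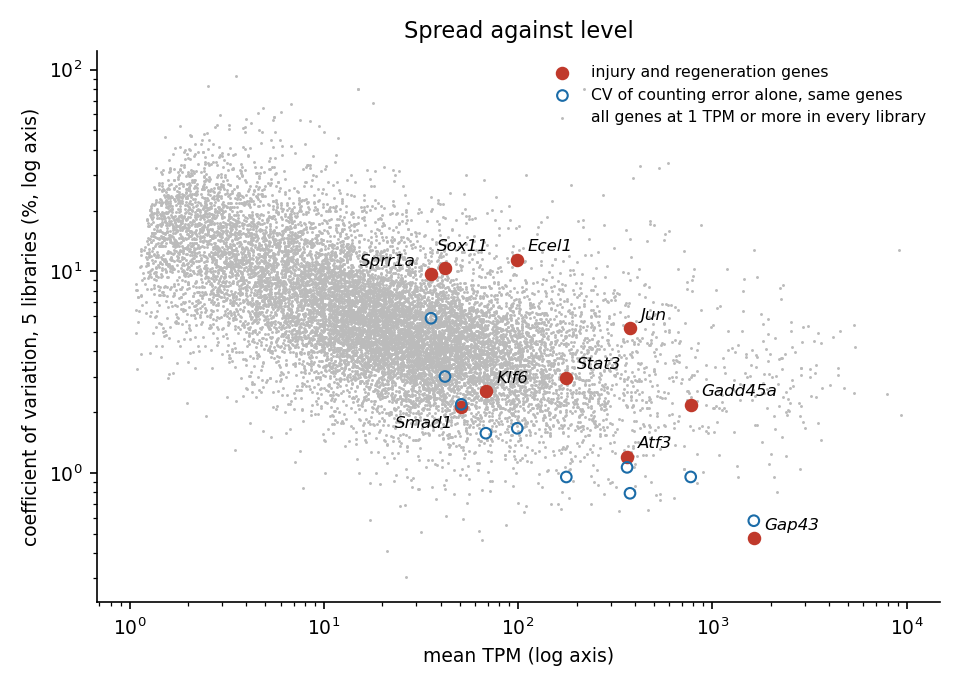
Coefficient of variation over the 5 libraries (%, log axis) against mean TPM (log axis); red points are the 10 genes, open circles the CV of counting error alone for the same genes, and grey points all 13635 detected genes. Gap43, at 0.476%, lies below the genes of like level, and Ecel1 at 11.4%, Sox11 at 10.4% and Sprr1a at 9.65% lie in the upper part of the cloud.

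The spread was also fitted across all genes with edgeR. The biological CV is an estimate of the spread beyond counting error, in which edgeR draws the value of each gene towards the trend. It was above the trend for genes of like abundance in 2 of the 10 genes, against 22.4% of the 12922 genes fitted. These were Ecel1, with a biological CV of 0.0938 against a trend of 0.0472, and Sox11, with 0.0857 against 0.0645. Both calls rest on replicate 1, since without that library 0 of 10 genes lay above the trend, beside 2742 of the 13014 genes fitted. Leaving out replicate 1, the CV of Ecel1 was 3.59% and that of Sox11 3.54%, below the 8.13% of Sprr1a and the 4.45% of Jun.

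Ecel1, Sox11, Sprr1a and Stat3 were lower in replicate 1 than in all other libraries, a count of 4 of 10 beside 24.4% of all detected genes, and Jun and Gadd45a were higher, 2 of 10 beside 22.3%. Sprr1a was at 86.1% of the mean of the other libraries in replicate 1, Stat3 at 95.8%, Jun at 108% and Gadd45a at 104%. In bulk RNA, fewer cells of a type and less RNA per cell cannot be told apart. Neuron markers were in sum at 98.0% in replicate 1, with 5 of 8 genes lower than in all other libraries beside the 24.4% of all detected genes, and Gap43 was at 99.8%. Schwann cell markers were in sum at 89.3%, with 3 of 6 genes lower, and none of the defining markers of these lists was at 0. The part of these marker differences in the values of Ecel1 and Sox11 was not tested.

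**Figure D4:**
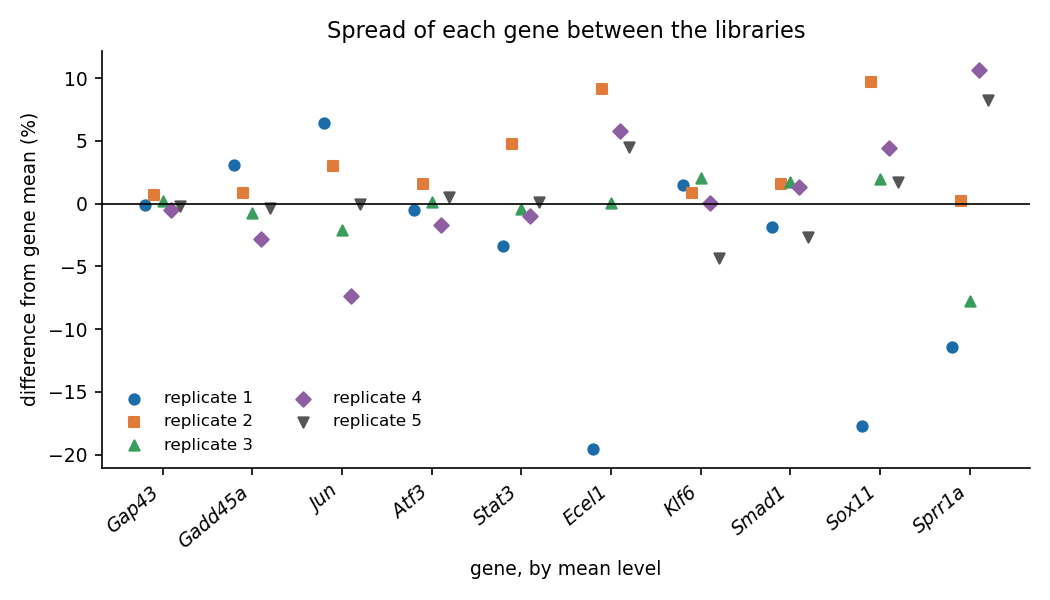
Difference of each library from the mean of the gene (%), for the 10 genes ordered by level; symbols mark the 5 libraries and the line at 0 is the mean. Replicate 1 lies 19.5% below the mean for Ecel1 and 17.7% below it for Sox11, while the 5 values of Gap43 lie within 1% of the mean.

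In each of the 4 genes with several named transcripts, most of the RNA was assigned to a single one. The transcript files held 18 transcripts that a RefSeq table names for the 10 genes. The other 6 genes (Jun, Sox11, Gap43, Sprr1a, Gadd45a and Klf6) had only 1, so its share is fixed by the annotation. For Atf3, the curated transcript NM_012912.2 had 320.1, 323, 325, 312 and 311 TPM, which is 87.4% ± 1.57 of the gene, and the predicted transcript XM_039090385.1 made up 12.6% ± 1.57. For Stat3, NM_012747.2 held 86.9% ± 1.09, and the other 3 named transcripts held 7.66%, 4.76% and 0.678%. For Smad1, NM_013130.3 held 77.9% ± 3.63 and XM_006255394.2 17.8% ± 2.71. A further Smad1 transcript, XM_006255397.2, moved between 0.186 TPM in replicate 1 and 3.42 TPM in replicate 4, on 7.88 to 163 estimated reads. Ecel1 differed from the others, since its curated transcript NM_021776.2 held 1.10% ± 0.125 of the gene and the predicted XM_017596615.2 held 89.9% ± 0.861. A remainder of 9.01% ± 0.821 of the TPM of Ecel1 came from transcripts that the table does not name. These divisions are estimates of the model for reads that fit several transcripts of a gene.

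Promoter sequences were at hand for 7 of the 10 genes in RefSeq (build GRCr8, 250 bases before to 50 after a start site), and 3 are shown. None was at hand for Atf3, Jun and Gap43, so the motif counts below do not cover them. Sprr1a is shown because it was the only one of the 7 with a match to the AP-1 motif, the site that Jun and its partners bind. Gadd45a is shown as the most abundant of the 7, and Sox11 as a gene whose biological CV lay above the trend. Capitals mark matches to the AP-1 motif TGANTCA, the TATA motif TATAAA and the GC box GGGCGG, on either strand. The sequences run 5′ to 3′ along each gene.
Sprr1a: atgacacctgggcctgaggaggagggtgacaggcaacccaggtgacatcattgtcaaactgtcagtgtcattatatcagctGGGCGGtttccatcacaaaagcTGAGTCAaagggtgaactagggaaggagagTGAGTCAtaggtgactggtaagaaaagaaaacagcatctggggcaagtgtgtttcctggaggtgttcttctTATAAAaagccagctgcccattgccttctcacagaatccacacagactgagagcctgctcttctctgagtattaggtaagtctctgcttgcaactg
Gadd45a: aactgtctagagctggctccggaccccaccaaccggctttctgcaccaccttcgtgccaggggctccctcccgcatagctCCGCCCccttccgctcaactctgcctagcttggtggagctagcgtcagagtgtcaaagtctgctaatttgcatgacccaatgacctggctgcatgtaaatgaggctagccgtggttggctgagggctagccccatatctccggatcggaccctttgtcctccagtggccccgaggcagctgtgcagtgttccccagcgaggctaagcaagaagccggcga
Sox11: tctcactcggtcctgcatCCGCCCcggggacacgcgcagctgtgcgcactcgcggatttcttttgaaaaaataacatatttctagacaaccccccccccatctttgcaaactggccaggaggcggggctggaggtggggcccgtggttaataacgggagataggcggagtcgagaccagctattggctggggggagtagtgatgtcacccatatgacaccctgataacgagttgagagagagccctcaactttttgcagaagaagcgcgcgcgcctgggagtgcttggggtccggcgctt

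The Sprr1a window lies at chr2:180752576-180752875 on the minus strand, that of Gadd45a at chr4:97486750-97487049 on the minus strand and that of Sox11 at chr6:49738745-49739044 on the minus strand. In Sprr1a, 2 AP-1 matches begin 147 and 117 bases before the start site and a TATA match begins 46 bases before it. The AP-1 motif was found in 1 of the 7 windows and in 7.33% of the 33469 windows of the table, and the TATA motif in 1 of 7 and in 14.2%. The GC box was found in 5 of 7 (Sprr1a, Gadd45a, Sox11, Klf6 and Smad1) and in 33.1%. Matches to the STAT motif TTCNNNGAA and to TGACGTCA, a site of ATF and CREB factors, were found in 0 of the 7 windows, against 8.87% and 1.83% of all windows. The letters CCAAT, the motif of the factor NF-Y, were found in 5 of 7 windows and in 37.5% of all. Each motif was searched on both strands, and none of the matches in the 3 sequences shown overlapped another. A match describes the letters only, and their absence from a window says nothing about the factor.

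Genes that act beside the 10 were mostly expressed as well. The detected counts of the lists below stand beside the 41.3% of all genes in the table that met the same rule. Of 12 bZIP genes that can pair with or act beside Atf3 and Jun, 11 were detected, with a median of 94.4 TPM. The highest were Atf5 at 984 ± 52.3 TPM, Atf4 at 667 ± 33.5 TPM and Ddit3 at 449 ± 33.4 TPM, genes of the integrated stress response. All 3 had mean levels above those of Atf3 and Jun. Fosb averaged 1.17 ± 0.453 TPM and did not reach 1 TPM in every library.

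Kinases of the pathway from the injured axon to Jun were at moderate levels. All 9 genes of the DLK and JNK list were detected, with a median of 41.8 TPM, and the scaffold genes Mapk8ip1 (135 ± 5.50 TPM) and Mapk8ip3 (125 ± 7.70 TPM) were highest. Map2k7, a kinase that activates JNK, was at 53.4 ± 3.00 TPM. Its named transcripts summed to 16.2 TPM, a sum that can leave out transcripts that could not be named. All 10 genes of gp130 and Stat3 signalling were detected, with a median of 54.1 TPM, led by Socs3 at 116 ± 8.03, the shared receptor gene Il6st at 104 ± 3.53 and the kinase gene Jak1 at 93.4 ± 3.29 TPM.

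On the bone morphogenetic protein side, 7 of 10 genes were detected, with a median of 2.92 TPM. Smad4 (68.1 ± 1.70 TPM), Smad5 (42.9 ± 2.55 TPM) and the receptor gene Bmpr1a (41.2 ± 1.52 TPM) were highest. The named transcripts of Bmpr1a summed to 5.64 TPM. Such a sum can leave out transcripts that could not be named, so it is not a second measure of the level. Not at 1 TPM in every library were Smad9, the receptor gene Bmpr1b at 0.820 ± 0.250 TPM and the inhibitor gene Smad6 at 1.06 ± 0.123 TPM.

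Relatives of the other genes were examined by family. Of 12 other KLF genes 11 were detected, with a median of 18.7 TPM, led by Klf9 at 43.3 ± 2.56, Klf10 at 32.7 ± 0.941 and Klf13 at 27.4 ± 2.87 TPM. All 4 SoxC and GADD45 relatives were detected, with Gadd45g at 152 ± 3.77, Sox4 at 87.4 ± 2.68, Sox12 at 48.6 ± 2.51 and Gadd45b at 45.03 ± 2.39 TPM. Of 7 relatives of Sprr1a and Ecel1, 3 were detected, a share near the 41.3% of all genes. These were Ece1 at 69.3 ± 1.95, Ece2 at 7.89 ± 0.921 and Mme at 7.12 ± 1.18 TPM.

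Other genes of growth and injury were nearly all expressed. All 12 growth cone genes were detected, with a median of 217 TPM, led by Stmn2 at 1177 ± 23.7, Basp1 at 599 ± 30.6 and Marcksl1 at 353 ± 9.24 TPM. Their sum was lowest in replicate 1, at 93.9% of the mean of the others, with 10 of 12 genes lower there than in all other libraries, beside 24.4% of all detected genes. Of 21 other genes known to be induced by nerve injury, 20 were detected, with a median of 59.4 TPM. The highest were the small heat shock gene Hspb1 at 1208 ± 60.7 TPM, the protease gene Plat at 572 ± 20.1 TPM and the neuropeptide gene Gal at 329.6 ± 12.7 TPM, and Gpr151, an orphan receptor gene, was below the threshold at 0.298 ± 0.140 TPM. All 10 genes of repair Schwann cells, the state that Jun drives in glia after injury, were detected, with a median of 14.6 TPM. The highest of them were Ngfr at 286 ± 30.3, Gfap at 119 ± 10.4 and Sox2 at 83.5 ± 5.03 TPM.

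Immediate early genes, which neuronal activity induces for a short time, were detected for 7 of 10 genes, with a median of 30.3 TPM, and 9 of 10 reached 0.1 TPM in every library. Fos at 101 ± 12.9, Junb at 87.9 ± 5.08 and Nr4a1 at 50.1 ± 2.46 TPM were highest. Fosb, Arc and Npas4 did not reach 1 TPM in every library, with Arc at 0.483 ± 0.118 and Npas4 at 0.0211 ± 0.0177 TPM. Fos, Junb and Fosb are also among the bZIP genes above.

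**Figure D5:**
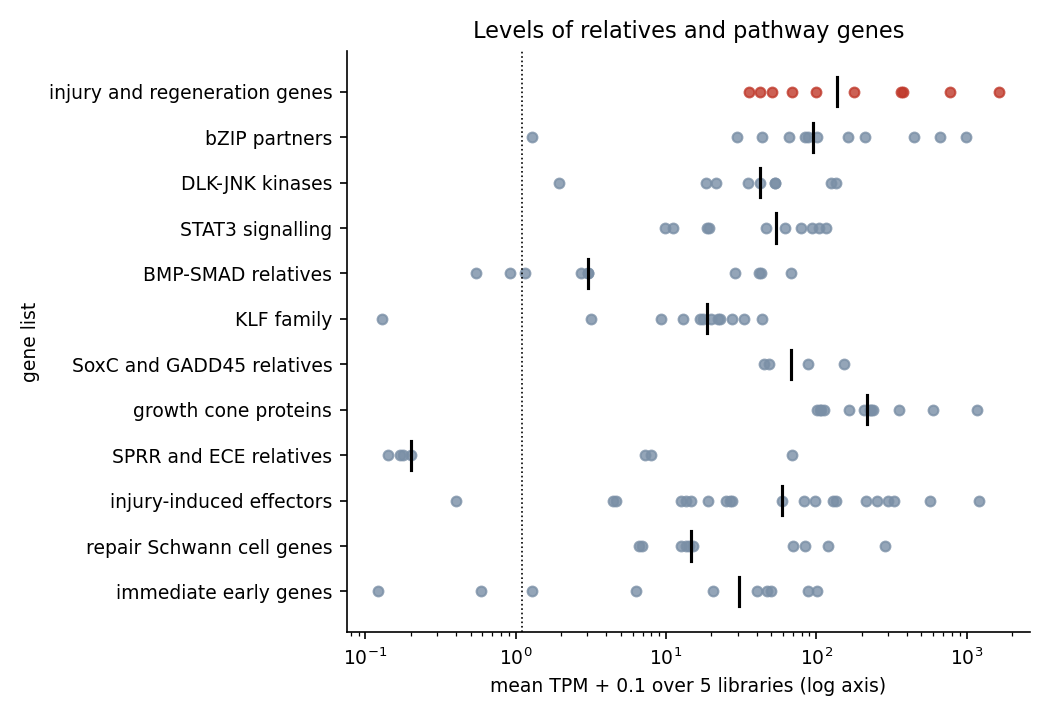
Mean TPM over the 5 libraries (0.1 added, log axis) of every gene of each list; points are genes, black lines the median of each list and the dotted line the 1 TPM threshold applied to means. The 10 injury and regeneration genes (red, top row) have a median of 138 TPM, growth cone genes one of 217 TPM and immediate early genes one of 30.3 TPM.

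In the GRCr8 table, 3 of the genes overlap another gene. Gadd45a overlaps the non-coding gene LOC100912188, which had 3.53 TPM, or 0.456% of the level of Gadd45a. Atf3 overlaps Garin4 and Ecel1 overlaps LOC134480403, and neither symbol is in the authors' table. Only the spans of the genes were compared, and whether they share exon sequence was not examined. The strand setting of the counting is not given in the sources used here. Reads from any shared sequence may therefore not be told apart.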

How the data were processed

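RNA was measured by poly-A RNA-seq in 5 libraries of 1 group. Salmon 1.5.1, cutadapt 2.8, Trim Galore 0.6.6 and build mRatBN7.2 are named in the submitters' processing notes. The authors deposited gene-level TPM, and per the file headers each deposited transcript file holds TPM and estimated counts of reads for 98811 transcripts. TPM is relative, so a change in abundant genes moves all others.

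Levels come from the gene table. Transcripts were named through the RefSeq table of build GRCr8 by accession without version, which named 68.1% of them and 81.4% to 81.7% of reads. Estimated counts of named transcripts were summed per gene, rounded and fitted with edgeR 4.0.16 (TMM, filterByExpr, intercept only). Ecel1 reads hold 89.9% to 92.0% of its TPM. Ratios are log2 of TPM with 0.1 added, tested by exact two-sided sign-flip permutation; they understate ratios of low genes. Counting error is taken as Poisson and ignores duplicate molecules. No 2 libraries were identical.

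The genes and lists were chosen with earlier results of these data known. Named are the 10 genes, the genes of 24 fixed pairs (1 is not reported here), and of each pathway list the 3 highest and up to 3 lowest undetected. No other gene was chosen for a pattern across libraries like that of one of the 10, since 5 libraries of 1 group are too few. Alternatives covered thresholds, added constants, transcript sums, length normalization, scaling and leaving out each library.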

Additional observations from a re-analysis of the deposited data

Results flagged for a closer look

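Of 141 sets of 5 values tested, 11 held a library far from the other 4 by Dixon's criterion. Chance alone flags about 1 independent set in 20, but many sets here share a gene, and 3 of the 11 (Klf7, Sprr1b and Sprr2d) have 0 in the other 4 libraries and meet the criterion by construction, so the count is not compared with that rate. Replicate 1 stood apart in 6 of them. The log2 ratio of Sox11 to Sox4 was -1.37 there, against -1.03 to -0.92 in the others. The log2 ratio of Ecel1 to Ece1 was 0.25, against 0.55 to 0.60, and that of Stat3 to Ecel1 was 1.10, against 0.74 to 0.83. Summed TPM of the growth cone genes was 3445 in replicate 1, against 3649 to 3708. Gal had 307 TPM there, against 332 to 339, and Socs3 had 101 TPM, against 117 to 121. The TPM of Sox11 itself came just short of the criterion, with a gap of 0.7097 of the range against a limit of 0.71.

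The share of NM_021776.2 in Ecel1 was 0.879% in replicate 3, against 1.15% to 1.17% in the others. Klf7 had 0.142 TPM in replicate 4 and 0 in the others, so that the log2 ratio of Klf6 to Klf7 was 8.14 there, against 9.35 to 9.45. Sprr1b had 0.343 TPM in replicate 3 and Sprr2d 0.204 TPM in replicate 2, each with 0 in the other libraries.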

How the results depend on the processing

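All 10 genes stayed detected at 0.1 and 10 TPM, with transcript sums and without any 1 library. Of 288 alternative values for 32 gene ratios, 282 kept their direction. The 6 that turned came from reads without length normalization, where transcript length enters by construction: Sox11 over Sox12 was 1.00, Smad1 over Smad5 -0.46, Ecel1 over Ece1 -0.049, Gadd45a over Jun -0.54, Atf3 over Stat3 -0.32 and Ecel1 over Klf6 -0.17 (log2). For Ecel1 these reads also leave out its unnamed transcripts. With transcript sums alone, Ecel1 over Ece1 was 0.37 against 0.51, and Ecel1 over Klf6 was 0.39 against 0.53. Klf6 over Klf7 was 4.76 with transcript sums, 6.08 with 1 added and 11.95 with 0.01 added, against 9.16. The count of genes above the spread trend, 2 of 10, ranged between 0 and 3 when single libraries were left out. It was 0 without replicate 1, beside 2742 of 13014 genes fitted. It was 3 without replicate 2, 3 or 5, beside 2889 of 13082, 2953 of 13064 and 2967 of 13065 genes. With the SD of log2 TPM against a lowess trend it was 4 (Jun, Sox11, Sprr1a and Ecel1), beside 37.8% of all detected genes. XM_017596615.2 held 96.6% of the named reads of Ecel1, a share without the unnamed transcripts. At 10 TPM, 4 of the 10 bone morphogenetic protein genes and 1 of the 7 relatives of Sprr1a and Ecel1 were detected, beside 27.6% of all genes. No paired analysis was possible because all libraries form 1 group. Sprr1a has the fewest reads, with a counting error of 5.84% per library.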
